A study of Mus musculus with 2 samples.

Results

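*Apoe*, *Abca1*, *Lpl*, *Cd36*, *Lrp1*, *Fabp3*, *Gpnmb*, *G0s2* and *Plin2* are 9 genes of lipid handling and of foam cells, and they were chosen by symbol among the 31053 genes measured. All 9 were found in the feature list. The cells were primary aortic VSMCs of wild type mice after 5 days in culture, profiled by single-cell RNA-seq in 2 biological replicates of 1 condition. The labels name no treatment. According to the study's methods the full medium held serum, cells of several aortae were pooled per preparation, and freshly isolated cells were not profiled here. All tests are therefore between groups of cells from the same 2 cultures, and the libraries are the replicates of every value (n = 2). The main test does not pair the groups by culture. The cultures serve as a model for phenotypic modulation, in which VSMCs lose contractile proteins such as smooth muscle myosin (*Myh11*), and the question here is how the lipid genes differ between cells with much and with little *Myh11*.

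Foam cells are macrophages or VSMCs that have filled with lipid in the wall of an artery. Lipoprotein and scavenger receptors take up particles, lipoprotein lipase releases fatty acids from them, fatty acid-binding proteins carry these through the cytosol, and droplets coated with perilipins store the excess. Cholesterol is digested out of particles in lysosomes and leaves the cell through ABC transporters, which load it onto apolipoproteins such as ApoE.

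Barcodes with 300 or more genes, 3000 or more UMIs and less than 20% of UMIs from mitochondrial genes were kept as cells, which left 4866 cells of replicate 1 and 6824 cells of replicate 2. A UMI (unique molecular identifier) marks 1 captured mRNA molecule, and the median cell held 22234.5 UMIs in replicate 1 and 16310 in replicate 2. The libraries shared 9 barcodes among the kept cells. Endothelial cells (ECs) were called from at least 2 UMIs in each of at least 2 of *Pecam1*, *Cdh5*, *Cldn5* and *Gja4*, which gave 102 and 141 cells. The remaining cells were taken as Myh11-high (at least 5 *Myh11* UMIs, 473 and 879 cells), Myh11-low (0 or 1, 3954 and 5362 cells), *Lum*-positive (at least 1 UMI of the fibroblast proteoglycan lumican, 2224 and 3548 cells) and cycling (at least 5 UMIs over 11 cell cycle genes, 2110 and 2515 cells). These groups overlap, so that the tests used 7 strata without shared cells. Levels and tests refer to these strata, in which the Myh11-low cells without and with *Lum* are non-cycling, and shares of cells refer to the whole groups, cycling cells included. The groups were set against marker lists, which include the genes that defined them. In the non-cycling Myh11-high cells 6 contractile genes, *Myh11* among them, summed to 24680 and 27330 CPM (UMI counts per 1000000 UMIs), against 3198 to 6245 CPM in the non-cycling Myh11-low cells, and 11 endothelial genes summed to 4278 and 4598 CPM in the ECs against 12.5 to 51.2 CPM in the other strata. Adipocyte markers summed to at most 1.28 CPM in any stratum, melanocyte markers to at most 3.77 CPM and Schwann cell markers to at most 3.09 CPM. Cardiomyocyte markers summed to at most 21.1 CPM, and *Myh6* among them was at 0 throughout.

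The promoters of 3 genes are shown because the results turn on them. *Abca1* was the 1 gene of the 9 that passed the main test between Myh11-low and Myh11-high cells, *Gpnmb* was used to split the cells, and *Fabp3* was among the genes that went with it from cell to cell. The sequences are RefSeq's for GRCm38.p6 and run 5′ to 3′ from 250 bases before to 50 bases after RefSeq's start of the gene, which for *Fabp3* and *Gpnmb* is not the start in GENCODE, the source of the gene coordinates given with the values. Capitals mark matches to a motif on either strand.
Abca1, chr4:53159846-53160145, minus strand: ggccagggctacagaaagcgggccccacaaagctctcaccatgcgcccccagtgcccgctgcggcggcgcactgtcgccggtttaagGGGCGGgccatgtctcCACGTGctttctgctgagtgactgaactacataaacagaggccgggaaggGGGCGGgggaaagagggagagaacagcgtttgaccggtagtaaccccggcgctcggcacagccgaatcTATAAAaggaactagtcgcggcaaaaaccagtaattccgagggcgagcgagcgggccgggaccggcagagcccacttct
Fabp3, chr4:130308488-130308787, plus strand: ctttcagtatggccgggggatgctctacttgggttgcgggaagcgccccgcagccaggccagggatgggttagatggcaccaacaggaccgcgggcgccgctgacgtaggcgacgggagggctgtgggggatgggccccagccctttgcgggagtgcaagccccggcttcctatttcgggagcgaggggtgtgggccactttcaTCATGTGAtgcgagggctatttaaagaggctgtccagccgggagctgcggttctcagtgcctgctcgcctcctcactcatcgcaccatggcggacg
Gpnmb, chr6:49036268-49036567, plus strand: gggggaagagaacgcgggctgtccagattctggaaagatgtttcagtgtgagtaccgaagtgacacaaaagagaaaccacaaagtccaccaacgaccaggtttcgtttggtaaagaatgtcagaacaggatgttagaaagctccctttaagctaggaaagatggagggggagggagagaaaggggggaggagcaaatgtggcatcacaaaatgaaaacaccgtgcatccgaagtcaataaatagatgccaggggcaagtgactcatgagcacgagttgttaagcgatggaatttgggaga
The *Abca1* window held an E-box (CACGTG) 147 bases before the RefSeq start, a TATA box (TATAAA) at 29 bases and GC boxes (GGGCGG) at 163 and 97 bases. The *Fabp3* window held an M-box (TCATGTGA), the extended E-box known from MITF targets, 46 bases before the RefSeq start and inside the gene as GENCODE draws it, and the *Gpnmb* window held none of the 8 motifs searched. Over all 32851 promoters of the table, 7.15% held the E-box, 0.986% the M-box, 13.6% the TATA box and 35.7% the GC box. RefSeq promoters were matched for 8 of the 9 genes, all but *Lpl*. None of these 8 held the lysosomal CLEAR element (TCACGTGA, which contains the E-box), the sterol response element (TCACCCCAC), the LXR repeat (AGGTCA again after 4 bases) or the PPAR repeat (AGGTCA again after 1 base), which were in 0.974%, 0.551%, 0.0152% and 0.0396% of all promoters. A match is a description of the letters and no evidence of binding. Only the exact letters given were searched, so that a site with other letters is missed. Motifs this rare were unlikely to be found in 8 promoters. The search therefore cannot show that a promoter lacks such a site.

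Between non-cycling Myh11-low and Myh11-high cells, 1 of the 9 genes passed the main test and was higher in the Myh11-low cells (*Abca1*), while the test called 3.03% of the 13015 genes tested as higher and 5.02% as lower. The fitted difference was above 0 for all 9 genes, with a median of 0.05 over all genes tested. For *Cd36* this sign was fixed, as it had 0 UMIs in the non-cycling Myh11-high cells. The levels of the other genes in the single libraries were also higher in Myh11-low cells, except for *Fabp3* and *Plin2* in replicate 1. Both sums of a library stem from 1 culture. When the library was taken into the fit as a block, 6 of the 9 genes were called as higher (*Apoe*, *Abca1*, *Lpl*, *Lrp1*, *Gpnmb* and *G0s2*) and 0 as lower, at a background of 15.9% of genes called as higher and 14.1% as lower. Myh11-high cells were deeper. The median of the non-cycling cells was 23576 and 18162.5 UMIs per cell against 19578 and 14357.5 in Myh11-low cells. In the whole groups, cycling cells included, it was 25667 and 21018 against 21979 and 15639.5. With cells assigned by their rate of *Myh11* UMIs and with the block, again 6 of the 9 genes were called as higher. That fit called 2165 of the 13448 genes tested as higher and 2118 as lower.

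**Figure D1:**
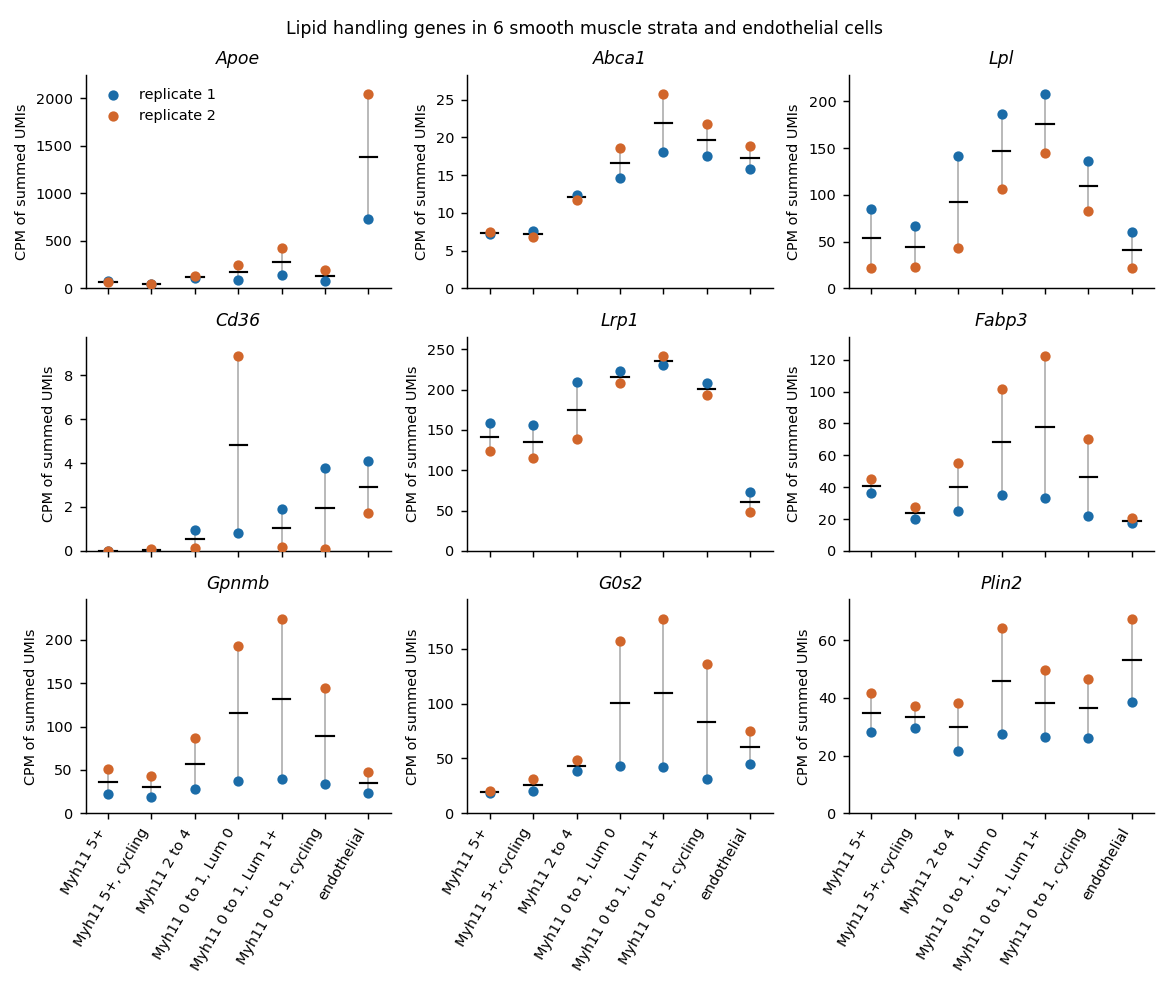
Level of each gene (vertical axis, CPM of the UMIs summed per library and stratum, linear scale from 0) in 6 VSMC strata and in ECs. Points are the libraries, the bar is their mean and the grey line joins them. *Apoe* stood at 725 and 2043 CPM in ECs, while *Gpnmb*, *G0s2* and *Fabp3* lay far apart between the libraries in the Myh11-low strata.

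*Abca1* (ENSMUSG00000015243, chr4:53030787-53159895, minus strand, GRCm38) encodes the transporter that exports cholesterol and phospholipid to lipid-poor apolipoproteins. It stood at 7.23 CPM in replicate 1 and 7.53 CPM in replicate 2 in the non-cycling Myh11-high cells. In the Myh11-low cells it stood at 14.6 and 18.6 CPM without *Lum* and at 18.04 and 25.76 CPM with *Lum*. Each Myh11-low value was above both Myh11-high values. The difference was 1.30 on the log2 scale (SE 0.19, 2.46-fold), with an adjusted p of 0.00407 by edgeR's quasi-likelihood test (Benjamini-Hochberg over all genes tested). It was 1.15 in replicate 1 alone and 1.53 in replicate 2 alone. The call was lost when the overlapping groups were tested with their cycling cells (difference 1.38, adjusted p 0.0975 by the same test). The share of cells with an *Abca1* UMI was 17.1% (95% exact binomial interval 13.8% to 20.8%) and 10.9% (8.94% to 13.2%) in Myh11-high cells and 25.8% (24.4% to 27.1%) and 25.7% (24.5% to 26.9%) in Myh11-low cells. Free RNA alone would give 0.836% to 1.48% in these groups and in ECs. After thinning of every cell to 3000 UMIs the shares were 1.91% and 1.92% in Myh11-high and 4.71% and 6.48% in Myh11-low cells.

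*Apoe* (ENSMUSG00000002985, chr7:19696109-19699188, minus strand) encodes the apolipoprotein that carries cholesterol out of and between cells. Among VSMCs it stood at 73.7 and 64.4 CPM in non-cycling Myh11-high cells, at 91.1 and 252 CPM in Myh11-low cells without *Lum*, and at 137 and 422 CPM in those with *Lum*. The groups did not overlap, but the libraries lay close together in Myh11-high cells and far apart in Myh11-low cells. The fitted difference of 1.59 on the log2 scale (SE 0.63) had an adjusted p of 0.167 by edgeR's quasi-likelihood test (Benjamini-Hochberg), and 0.0284 with the block (difference 1.38). It was 0.60 in replicate 1 and 2.34 in replicate 2. A UMI of *Apoe* was found in 39.8% (35.3% to 44.3%) and 29.0% (26.0% to 32.1%) of Myh11-high cells and in 50.2% (48.6% to 51.8%) and 64.5% (63.2% to 65.8%) of Myh11-low cells. Free RNA alone would give 15.02% and 26.28% of Myh11-high cells and 13.0% and 21.3% of Myh11-low cells, so that in replicate 2 the estimate for Myh11-high cells lay inside the interval of the observed share. The level of that whole group was 53.3 CPM, against 14.1 CPM estimated from free RNA.

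*Lrp1* (ENSMUSG00000040249, chr10:127538161-127621148, minus strand) encodes a large endocytic receptor for ApoE-rich remnants and many other ligands. It was found in nearly every VSMC, with a UMI in 93.2% (90.6% to 95.3%) and 84.1% (81.5% to 86.4%) of Myh11-high and in 93.4% (92.6% to 94.2%) and 90.4% (89.6% to 91.2%) of Myh11-low cells. In ECs, which had less of it, the share was 20.6% (13.2% to 29.7%) and 15.6% (10.0% to 22.7%), at a free RNA estimate of 12.9% and 7.16%. The level was 158 and 124 CPM in non-cycling Myh11-high cells against 224 and 208 CPM in Myh11-low cells without *Lum* and 231 and 241 CPM in those with *Lum*. The Myh11-low values were all above the Myh11-high values, by 0.62 on the log2 scale (SE 0.22), with an adjusted p of 0.124 by edgeR's quasi-likelihood test (Benjamini-Hochberg) and of 0.00522 with the block. *Lrp1* was spread evenly over Myh11-low cells. The ratio of variance to mean of its UMIs after thinning (Fano factor, 1 for random sampling) was 1.092 and 1.101, with a median of 4 and 3 UMIs per cell.

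*Lpl* (ENSMUSG00000015568, chr8:68880491-68907448, plus strand) encodes lipoprotein lipase, which frees fatty acids from triglyceride-rich particles. It stood at 84.6 and 22.1 CPM in non-cycling Myh11-high cells, at 187 and 107 CPM in Myh11-low cells without *Lum* and at 208 and 145 CPM in those with *Lum*. Replicate 1 was the higher library in all 3, which was the opposite of *Apoe* in the Myh11-low cells. The difference of 1.54 on the log2 scale (SE 0.72, 1.22 in replicate 1 and 2.49 in replicate 2) had an adjusted p of 0.242 by edgeR's quasi-likelihood test (Benjamini-Hochberg) and of 0.00148 with the block. In contrast to *Lrp1*, the *Lpl* UMIs were concentrated in some of the cells. The Fano factor in Myh11-low cells was 3.48 and 4.62, the median cell held 1 and 0 UMIs, the cell at the 90th percentile held 11 and 5, and the highest held 154 and 107. A UMI was present in 59.5% (57.9% to 61.0%) and 39.6% (38.3% to 40.9%) of Myh11-low cells, at a free RNA estimate of 10.2% and 3.83%, and in 21.6% and 10.6% of ECs.

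*G0s2* (ENSMUSG00000009633, chr1:193272161-193273217, minus strand) encodes an inhibitor of adipose triglyceride lipase, the enzyme that starts the breakdown of droplets. It stood at 18.9 and 20.3 CPM in non-cycling Myh11-high cells, at 43.2 and 157 CPM in Myh11-low cells without *Lum* and at 42.0 and 177 CPM in those with *Lum*. The difference was 2.34 on the log2 scale (SE 0.80), with an adjusted p of 0.114 by edgeR's quasi-likelihood test (Benjamini-Hochberg) and of 0.00768 with the block (2.12). *Plin2* (ENSMUSG00000028494, chr4:86648386-86670060, minus strand), the perilipin that coats droplets in cells other than adipocytes, differed little. It stood at 28.2 and 41.7 CPM in Myh11-high cells, at 27.4 and 64.3 CPM in Myh11-low cells without *Lum* and at 26.3 and 49.85 CPM in those with *Lum*, so that the groups overlapped. Its difference was 0.18 (SE 0.43), with an adjusted p of 0.853 without and 0.523 with the block by the same test.

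*Fabp3* (ENSMUSG00000028773, chr4:130308595-130315463, plus strand) encodes a cytosolic carrier of fatty acids best known from heart muscle. Its libraries disagreed. In replicate 1 it stood at 36.2 CPM in non-cycling Myh11-high cells and at 34.9 and 33.1 CPM in Myh11-low cells without and with *Lum*. In replicate 2 it stood at 45.04 CPM in Myh11-high cells and at 102 and 122 CPM in the Myh11-low cells. The fitted difference was 0.77 on the log2 scale (SE 0.65, adjusted p 0.537 by edgeR's quasi-likelihood test (Benjamini-Hochberg), 0.191 with the block). *Gpnmb* (ENSMUSG00000029816, chr6:49036546-49070929, plus strand) encodes a glycoprotein of lysosomal and melanosomal membranes that marks lipid-laden macrophages. It stood at 22.5 and 50.7 CPM in Myh11-high cells, at 37.9 and 192 CPM in Myh11-low cells without *Lum* and at 40.0 and 224 CPM in those with *Lum*. Within each library the Myh11-low cells were higher, but the Myh11-low values of replicate 1 lay below the Myh11-high value of replicate 2. The difference was 1.67 (SE 0.98, adjusted p 0.358 by the same test), and 1.43 with the block (adjusted p 0.00468). A *Gpnmb* UMI was present in 41.4% (39.8% to 42.9%) of the Myh11-low cells of replicate 1 and in 80.4% (79.3% to 81.4%) of those of replicate 2, at free RNA estimates of 3.38% and 8.44%.

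**Figure D2:**
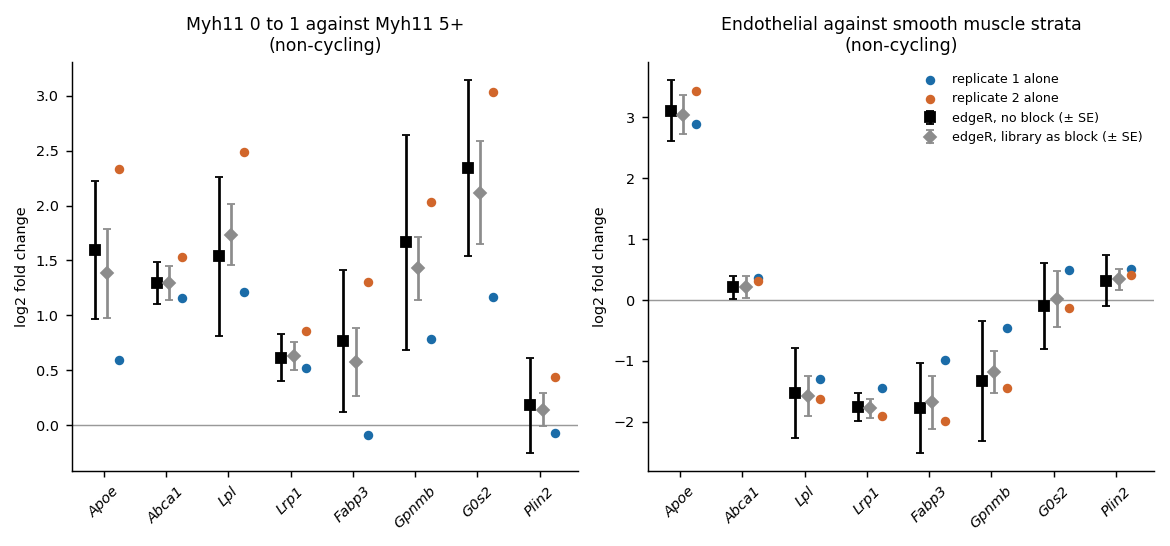
Log2 fold change of 8 genes (vertical axis) between non-cycling Myh11-low and Myh11-high cells (left) and between ECs and the mean of the non-cycling Myh11-high and both Myh11-low strata (right). Squares and diamonds are edgeR's fit without and with the library as a block, bars are the SE and points are single libraries. *Abca1* stands at 1.30 in the left panel, and *Apoe* at 3.11 and *Lrp1* at -1.76 stand out in the right panel.

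*Cd36* (ENSMUSG00000002944, chr5:17781690-17888801, minus strand), a scavenger receptor for oxidized lipoproteins and fatty acids, was nearly absent from VSMCs. It had 0 UMIs in the 263 and 452 non-cycling Myh11-high cells, so that up to 1.14% and 0.664% of such cells could hold a UMI (3 counts), and no fold is given against this group. Of 267 *Cd36* UMIs in replicate 1, 253 (94.8%) lay in 36 cells with UMIs in at least 2 of 10 macrophage markers, and of 182 in replicate 2, 157 (86.3%) lay in 28 such cells. These cells were 0.740% and 0.410% of all cells and held 1.08% and 0.491% of all UMIs. *Cd36* stood at 197 and 259 CPM in them and at 0.119 and 0.203 CPM in all other cells, and 15 and 5 of them had a *Cd36* UMI. In the ECs, 5 and 3 cells had a *Cd36* UMI. The other genes were less concentrated there. Of the UMIs of *Plin2*, 8.74% and 2.37% lay in the cells with macrophage markers, of *Gpnmb* 5.89% and 2.11%, of *Apoe* 3.20% and 1.25%, and of *Lpl* 2.08% and 1.12%. The 12 macrophage markers summed to 18.3 and 132 CPM in Myh11-low cells without *Lum*, 51.0 and 13.7 CPM in those with *Lum*, 101 and 10.7 CPM in the cycling ones, and 14.3 and 5.39 CPM in non-cycling Myh11-high cells, where *Ptprc*, *Adgre1*, *C1qa*, *C1qb*, *C1qc* and *Mrc1* were at 0. Without the cells with macrophage markers, and with the block, 6 of the 9 genes were again called as higher in Myh11-low cells. That fit called 2001 of the 12981 genes tested as higher and 1896 as lower.

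**Figure D3:**
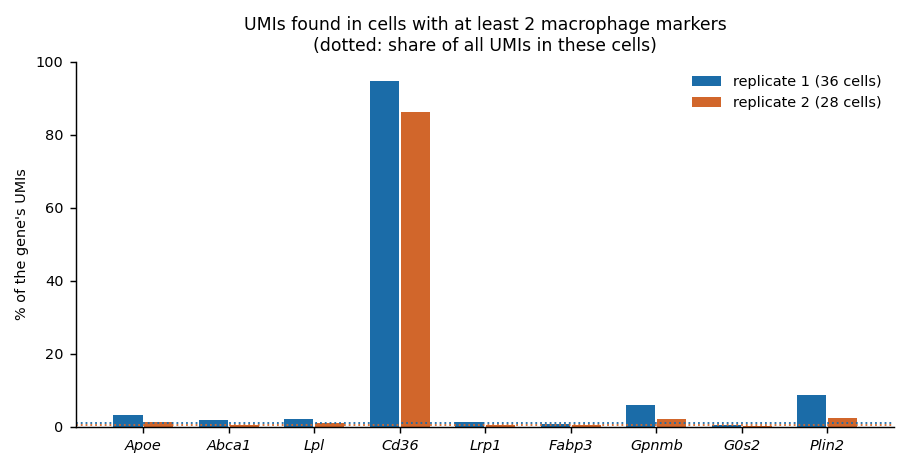
Share of each gene's UMIs (vertical axis, percent) that lay in cells with UMIs in at least 2 of 10 macrophage markers, per library, with dotted lines at these cells' share of all UMIs. *Cd36* reached 94.8% and 86.3%, and the next highest gene, *Plin2*, 8.74% and 2.37%.

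In ECs, *Apoe* was higher and *Lrp1* lower than in the mean of 3 non-cycling VSMC strata (Myh11-high, and Myh11-low without and with *Lum*), at a background of 21% of genes called as higher and 12.5% as lower. *Apoe* stood at 725 CPM in replicate 1 and at 2043 CPM in replicate 2, above the highest VSMC stratum of the same library (137 and 422 CPM). The difference was 3.11 on the log2 scale (SE 0.50, 8.63-fold), with an adjusted p of 0.0011 by edgeR's quasi-likelihood test (Benjamini-Hochberg), and it was called in 13 of 13 alternatives. ECs were not uniform in *Apoe*. A UMI was found in 68.6% (58.7% to 77.5%) and 86.5% (79.8% to 91.7%) of them, at free RNA estimates of 10.3% and 15.6%. The median EC held 4.5 and 18 UMIs, the EC at the 90th percentile 42.9 and 64, and the Fano factor after thinning was 11.1 and 12.4. In Myh11-low cells this factor was 2.42 and 3.95. For a gene that varies between cells it also rises with the level, which was higher in ECs. These values therefore do not show that ECs were less even than Myh11-low cells. *Lrp1* stood at 73.4 and 48.5 CPM in ECs, below every VSMC stratum, with a difference of -1.76 (SE 0.23, adjusted p 0.000314 by the same test) and a call in 13 of 13 alternatives.

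With the library as a block, *Lpl* (-1.58, adjusted p 0.00283 by edgeR's quasi-likelihood test (Benjamini-Hochberg)), *Fabp3* (-1.68, adjusted p 0.00958) and *Gpnmb* (-1.18, adjusted p 0.0177) were also called as lower in ECs, at a background of 26.5% of genes higher and 19.2% lower. Their EC levels were 60.1 and 22.3 CPM for *Lpl*, 17.3 and 20.6 CPM for *Fabp3* and 23.4 and 47.4 CPM for *Gpnmb*. The *Fabp3* UMI was present in 13.7% and 12.1% of ECs at a free RNA estimate of 2.66% and 4.50%. *Abca1* (15.8 and 18.9 CPM), *G0s2* (45.4 and 75.4 CPM) and *Plin2* (38.7 and 67.4 CPM) did not pass with or without the block. Their differences were 0.21 (SE 0.19), -0.10 (SE 0.71) and 0.32 (SE 0.42). Contractile genes summed to 2816 and 1986 CPM in the ECs, and doublets of an EC and a VSMC were not removed. Their part in the VSMC genes read in ECs was not tested.

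Among non-cycling Myh11-low cells, 0 of the 9 genes were called between *Lum*-positive and *Lum*-negative cells. The test called 0.00768% of genes as higher and 0% as lower, which was 1 gene. It belonged to the list of modulated VSMC markers, which holds *Lum*. *Lum* itself was used for the split and is no result. There were 120 genes at an unadjusted p under 0.05, and DESeq2 called 4 genes and none of the 9. The *Lum* comparison gave 0.71 (SE 0.67) for *Apoe*, 0.40 (SE 0.20) for *Abca1* and -0.26 (SE 0.49) for *Plin2* on the log2 scale. The other values lay between 0.13 and 0.27 apart from *Cd36* (-2.21, SE 1.59). Signs differed between replicates 1 and 2 for *Cd36* (1.22 and -5.45), *Fabp3* (-0.076 and 0.26) and *G0s2* (-0.038 and 0.17). *Apoe* was higher with *Lum* in both libraries, by 0.58 and 0.74.

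The fitted differences between cycling and non-cycling cells were below 0 for 9 of 9 genes in Myh11-low cells. The median over all genes tested was also below 0 (-0.063). Cycling Myh11-low cells were deeper, with a median of 25699.5 and 18711 UMIs against 19578 and 14357.5 in the non-cycling ones. Signs differed between replicates 1 and 2 for *Abca1* (0.11 and -0.0055) and *Cd36* (1.59 and -3.51). None of the 9 genes was called in Myh11-low or in Myh11-high cells by edgeR with or without the block, or by DESeq2. In Myh11-low cells the background was 6.52% of genes higher and 0.814% lower in cycling cells, and 2288 genes had an unadjusted p under 0.05. The differences were -0.76 (SE 0.60) for *Apoe*, -0.72 (SE 0.64) for *Fabp3*, -0.61 (SE 0.68) for *Lpl*, -0.54 (SE 0.91) for *Gpnmb* and -0.02 (SE 0.17) for *Abca1*. *Fabp3* stood at 21.9 and 70.6 CPM in cycling Myh11-low cells. In Myh11-high cells the background was 5.52% higher and 0.338% lower, with 1941 genes at an unadjusted p under 0.05. The differences of *Apoe* and *Fabp3* were -0.68 (SE 0.69) and -0.85 (SE 0.74) there. Those of *G0s2* (0.33, SE 0.84) and *Cd36* (3.16, SE 7.39, from 1 UMI) were above 0, and all others of the 9 were below 0. The test of whether the cycling difference itself differed between Myh11-low and Myh11-high cells called 0 genes (120 at an unadjusted p under 0.05, 2 by DESeq2).

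To see which of the other 8 genes went with *Gpnmb* from cell to cell, the non-cycling Myh11-low cells with at least 3 *Gpnmb* UMIs (212 and 1641 cells) were compared with those with 0 (1324 and 662 cells). *Gpnmb* itself was used for the split and is no result. *Fabp3* stood at 68.7 CPM with *Gpnmb* and 22.3 CPM without it in replicate 1, and at 142 and 66.3 CPM in replicate 2. *Abca1* stood at 25.4 CPM with and 14 CPM without it in replicate 1 and at 26.9 and 16.3 CPM in replicate 2. *Lrp1* stood at 256 and 219 CPM in replicate 1 and at 253 and 173 CPM in replicate 2. These genes were higher with *Gpnmb* in both libraries, while *G0s2* was almost level, at 44.8 and 46.5 CPM in replicate 1 and at 159 and 163 CPM in replicate 2.

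Without the block, edgeR's test called 0% of genes as higher and 0% as lower in this split (266 genes at an unadjusted p under 0.05, 22 called by DESeq2). *Cd36* passed the filter on low counts only through the cells with *Gpnmb* and is left out of the counts. It had 64 and 166 UMIs in 4 and 9 cells with *Gpnmb*, and 2 and 3 UMIs in 1 cell of each library without it. With the library as a block, 5 of the other 7 genes were called as higher and 0 as lower, at a background of 3% of genes higher and 2.24% lower, and this fit leaves only 1 residual degree of freedom. The differences were 1.35 for *Fabp3* (SE 0.10, adjusted p 6.25e-11 by edgeR's quasi-likelihood test (Benjamini-Hochberg) with the block), 0.81 for *Abca1* (adjusted p 2.74e-05), 0.40 for *Lrp1* (adjusted p 0.00206), 0.55 for *Plin2* (adjusted p 0.00428) and 0.36 for *Apoe* (adjusted p 0.013). *Lpl* (-0.19, adjusted p 0.448) and *G0s2* (-0.03, adjusted p 0.933) were not called. *Lpl* was 0.62 lower with *Gpnmb* in replicate 1 and 0.21 higher in replicate 2. The libraries were also uneven for *Plin2*, which was 0.98 higher in replicate 1 and 0.15 higher in replicate 2. *Apoe* was 0.09 higher in replicate 1 and 0.56 higher in replicate 2.

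The cells with *Gpnmb* were deeper, with a median of 27920 and 16992 UMIs against 17732.5 and 10920.5. With the *Gpnmb*-negative cells matched to them by depth (200 and 497 pairs) and with the block, 6 of the 7 genes tested were called as higher, among them *Fabp3* (1.32) and *Abca1* (1.07), at a background of 2.97% higher and 2.13% lower, and *Cd36* was too low to be tested. In this match *Apoe* stood at 1.11, and *Lpl* turned to 0.50 in the other direction and was called (adjusted p 0.000868 by edgeR's quasi-likelihood test (Benjamini-Hochberg)). Of the macrophage markers 7 of the 9 tested were called as higher with the block. After matching by depth only 4 could be tested, and 2 were called as higher. Whether the others passed the filter on low counts only through the cells with *Gpnmb* was not tested, so that these calls are not taken as support. Without the cells with macrophage markers 0 of the 4 markers still tested were called. These cells were picked by 10 of the 12 markers, so that this loss of calls is no result. *Cd36* was then too low to be tested, and 5 of the 7 genes tested were called as higher, at a background of 3.42% higher and 2.77% lower. *Plin2* was then 0.36 higher.

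**Figure D4:**
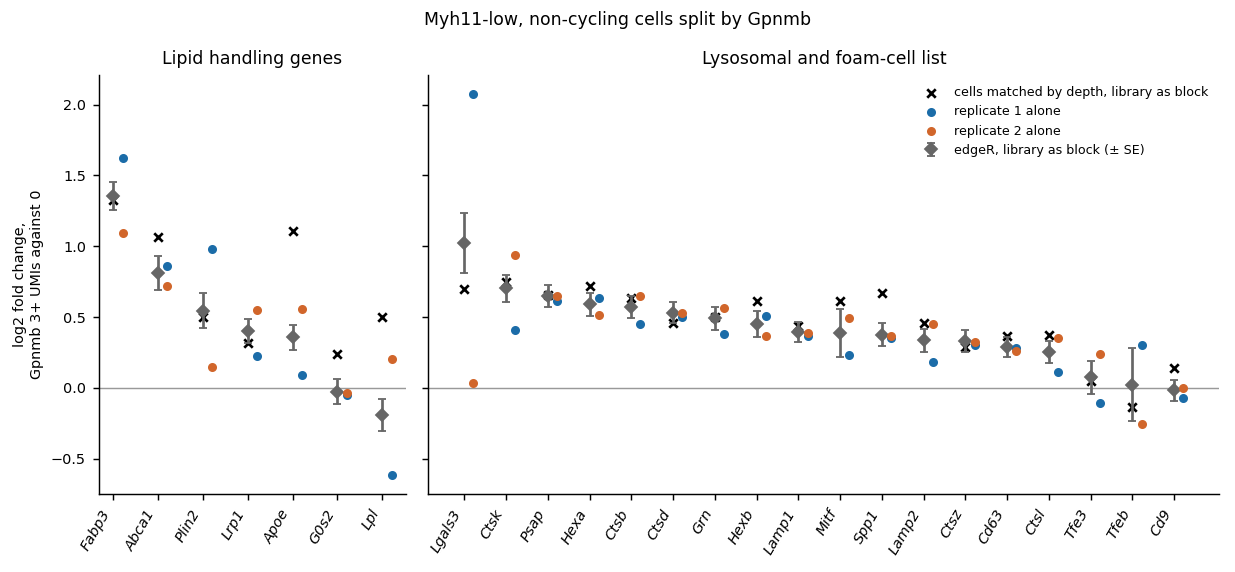
Log2 fold change (vertical axis) between non-cycling Myh11-low cells with at least 3 *Gpnmb* UMIs and with 0, for 7 of the 9 genes (left) and 18 lysosomal and foam-cell genes (right). Diamonds with SE bars are edgeR's fit with the library as a block, points are single libraries, and crosses are the fit after matching of cells by depth. *Fabp3* stands at 1.35 and *Lpl* below 0. *Cd36*, *Trem2* and *Atp6v0d2*, which lie outside the axis, are not drawn.

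Other lysosomal and foam-cell genes went the same way in the *Gpnmb* split. Of the 20 genes of this list other than *Gpnmb*, 19 had a value above 0 without the block, with a median of 0.43 on the log2 scale against -0.01 for all genes tested, and 0 were called. With the block, 15 were called as higher and 0 as lower, with *Trem2* and *Atp6v0d2* among the 15. The background was 3% of genes higher and 2.24% lower. Examples are *Psap* (prosaposin, 0.65), *Hexa* (a subunit of hexosaminidase, 0.59), *Ctsb* (cathepsin B, 0.57), *Ctsd* (cathepsin D, 0.53), *Ctsk* (cathepsin K, 0.70), *Grn* (progranulin, 0.49) and *Lamp1* (0.39). These 7 were above 0 in both libraries, and they were taken from the fit with the block after its values were seen. *Lgals3* (galectin-3) was 2.08 higher in replicate 1 and 0.04 higher in replicate 2. *Trem2* and *Atp6v0d2*, known from macrophages and osteoclasts, had 6.60 and 3.59 and stood at 5.39 CPM or less in all VSMC strata. They were not tested after matching, and their calls are not taken as support. *Mitf*, *Tfeb* and *Tfe3*, the transcription factors of lysosomal genes, were not called (0.39, 0.02 and 0.08). After matching by depth 14 of 18 genes of the list were called as higher with the block, at a background of 2.97%. Without the cells with macrophage markers it was also 14 of 18, at a background of 3.42%. Contractile genes went the other way, with 5 of 6 called as lower with the block and 4 of 6 after matching by depth. The backgrounds were 2.24% and 2.13% of genes lower. *Myh11* is 1 of the 6 and was limited to 0 or 1 UMI per cell in both groups, which limits its rate in the deeper cells.

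The libraries themselves differed in several of these genes. In the non-cycling Myh11-low cells, 6 of the 9 genes were at least 2-fold higher in replicate 2 and 0 at least 2-fold lower, where 5.13% of all genes tested were at least 2-fold higher and 3.3% at least 2-fold lower. *Gpnmb* went from 39.1 to 213 CPM (5.46-fold), *G0s2* from 42.6 to 170 CPM (4.001-fold), *Fabp3* from 33.9 to 115 CPM (3.40-fold) and *Apoe* from 116 to 364 CPM (3.13-fold). *Plin2* (2.04-fold) and *Cd36* (2.19-fold) were also higher, *Abca1* was 1.41-fold higher, *Lrp1* was level at 228 and 230 CPM, and *Lpl* was 1.505-fold higher in replicate 1. The *Cd36* value rested on 67 and 173 UMIs in 6 and 14 cells. Without the cells with macrophage markers 4 and 16 of its UMIs remained. The median absolute difference over all genes was 0.25 on the log2 scale. Each library is a single culture, so that culture and library cannot be told apart. In Myh11-high cells *Gpnmb* was again higher in replicate 2 (22.5 and 50.7 CPM) and *Lpl* higher in replicate 1 (84.6 and 22.1 CPM), while the library difference was small for *G0s2* (18.9 and 20.3 CPM), *Fabp3* (36.17 and 45.04 CPM) and *Apoe* (73.7 and 64.4 CPM).

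Among the other genes of lipid metabolism, several of sterol and fatty acid synthesis were higher in non-cycling Myh11-low than in Myh11-high cells. The backgrounds are the 3.03% of genes higher and 5.02% lower without the block and the 15.9% and 14.1% with it. Of 18 cholesterol synthesis genes all had a value above 0, with a median of 0.50 on the log2 scale against 0.05 for all genes tested, and 4 were called as higher and 0 as lower without the block and 14 and 0 with it. *Insig1*, the sterol sensor that holds back SREBP, was 0.91 higher (SE 0.22, 34.01 and 20.44 CPM in Myh11-high, 47.7 to 59.8 CPM in Myh11-low cells). *Fdft1*, squalene synthase, was 0.46 higher. Of 12 fatty acid synthesis and desaturation genes, 6 were called as higher and 1 as lower, and 8 and 2 with the block. The elongase *Elovl6* was 1.13 higher, the desaturases *Scd1* and *Scd2* 0.88 and 0.75 higher, with adjusted p-values of 0.0148, 0.0302 and 0.029 by edgeR's quasi-likelihood test (Benjamini-Hochberg).

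In the list of cholesterol efflux, transport and LXR genes (16 tested, median 0.74), 2 were called as higher and 0 as lower, namely *Abca1* and *Pltp*, the phospholipid transfer protein (1.92, SE 0.49). With the block 7 were higher and 1 lower. Of 17 genes of fatty acid uptake, binding and activation 2 were called as higher and 0 as lower (5 and 1 with the block), with *Acsl4*, which activates arachidonic acid, 0.68 higher. The 14 genes of droplets and lipolysis were split, with 1 higher and 3 lower (3 and 4 with the block). *Bscl2* (seipin) was 0.31 higher, and among the lower were the lipases *Mgll* (-1.49) and *Pnpla2* (-1.22). *Pnpla2* is the lipase that the product of *G0s2* inhibits, and it stood at 23.4 and 39.0 CPM in Myh11-high against 13.2 to 15.7 CPM in Myh11-low cells, the reverse of the order of *G0s2*. Of 12 receptors 0 were called as higher and 1 as lower, and 4 and 3 with the block. Of 14 PPAR and oxidation genes 1 was called as higher and 0 as lower, and 2 and 0 with the block. Of 21 lysosomal and foam-cell genes 0 were called as higher and 1 as lower, which was *Spp1* (osteopontin, -1.93), and 5 and 4 with the block.

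**Figure D5:**
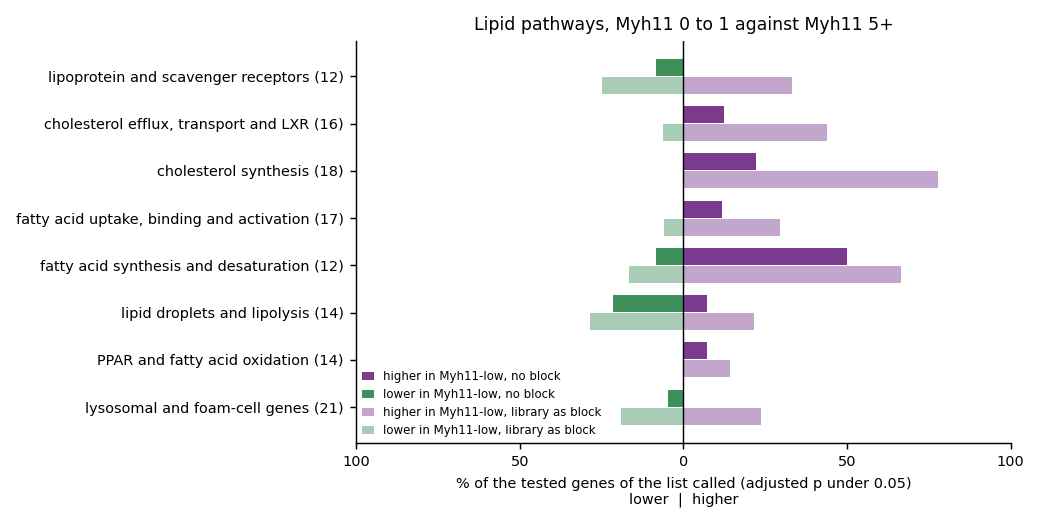
Share of each list's tested genes (horizontal axis, percent; number tested in brackets) called as lower (left of 0) or higher (right of 0) in Myh11-low than in Myh11-high non-cycling cells, without (dark) and with (pale) the library as a block. Fatty acid synthesis had 6 of 12 called as higher without the block, and cholesterol synthesis 14 of 18 with it.

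Of the 18 cholesterol synthesis genes 0 were called as higher and 10 as lower in ECs than in VSMCs, at a background of 21% higher and 12.5% lower. With the block these were 1 and 12, at a background of 26.5% and 19.2%. Those called included *Sqle* (squalene epoxidase, -1.52) and *Hsd17b7* (-1.83). The median of the list was -0.68 against 0.04 for all genes. The EC uptake genes differed from those of VSMCs beyond the low *Lrp1*. *Vldlr*, the very low density lipoprotein receptor, was 1.02 lower in ECs, while the scavenger receptor *Stab1* stood at 167 and 167 CPM in ECs and at 1.33 CPM or less in the non-cycling Myh11-high and Myh11-low strata. The fatty acid-binding protein *Fabp4* was 1.85 higher (SE 0.13, 1020 and 1011 CPM in ECs), in contrast to *Fabp3*. *Clu* (clusterin) was 2.21 higher. In cycling Myh11-low cells, 1 of 14 PPAR and oxidation genes and 0 of 18 cholesterol synthesis, 21 lysosomal and 16 efflux genes were called as lower without the block, at the 0.814% given above. With it 6, 10, 5 and 4 were lower, at a background of 11.5%. *Acadm*, a dehydrogenase of fatty acid oxidation, was lower in cycling cells of both classes (-0.41 and -0.51).

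Over the 12 VSMC sums, after the mean of each library was removed from log2(CPM + 1), *Lpl* and *Lrp1* correlated at a Pearson r of 0.987, *Lpl* and *Gpnmb* at 0.983, *Apoe* and *Gpnmb* at 0.955 and *Abca1* and *Lrp1* at 0.962. The lowest r among these genes with *Fabp3* and *G0s2* was 0.699, between *Abca1* and *Fabp3*. *Plin2* was apart, at 0.392 to 0.672 with the others, and so was *Cd36*, at 0.318 to 0.541. These values describe sums that share their libraries. Among the genes most like each of the 9 by this measure (mean of at least 20 CPM) were *Tmem176a* and *C1s1* for *Apoe*, *Cyth3* and *Lama2* for *Abca1*, *Slc7a2*, *Cpxm1* and *Cmtm3* for *Lpl*, and *Abi3bp*, *Efemp2* and *Sh3bgrl3* for *Lrp1*. They also included *Trnp1*, *Ctsa* and *Atp6v0d1* for *Fabp3*, *Vps29*, *Lipa* and *Emilin2* for *Gpnmb*, *Ap2b1*, *Litaf* and *Ptgs1* for *G0s2*, *Rab21*, *Mecom* and *Hsd17b12* for *Plin2* (r of 0.912 at most) and *Eef1akmt1*, *Tmed7* and *Angptl1* for *Cd36* (r of 0.777 at most).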

How the data were processed

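The authors aligned the reads of 2 single-cell 3′ v3 libraries to mm10 and deposited raw UMI counts of 31053 genes for all barcodes, empty droplets included. The labels name Cell Ranger 3.0.2 for both, while the file headers name CellRanger 3.0.2 for replicate 1 and 3.1.0 for replicate 2. Gene coordinates are from the GENCODE annotation of GRCm38. The counts summed to 127949633 and 132561822 UMIs.

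Counts of the kept cells were summed per library over 7 disjoint strata (ECs; Myh11-high; Myh11-high cycling; 2 to 4 *Myh11* UMIs; Myh11-low without *Lum*; Myh11-low with *Lum*; Myh11-low cycling), which gave 14 sums, and 4 sums for the *Gpnmb* split. Differences were tested with edgeR 4.0.16 in R 4.3.3 (quasi-likelihood F test, TMM, filterByExpr, Benjamini-Hochberg, threshold 0.05) and with DESeq2 1.42.0 as an alternative. Each SE was obtained as the fold change (log2) divided by the root of its F value. Log2 differences within single libraries add 0.5 to each summed count and have no test. An exact permutation test of 2 values against 2 cannot go below p = 0.33 and was not used. Same-numbered sums come from the same culture, and their deviations from the stratum means correlated across genes at 0.293 to 0.827 over 21 pairs of strata (median 0.587), so that a blocked fit (library as a term) is given where it changes a call.

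Exact 95% binomial intervals were computed for shares of cells holding a UMI, with counting error as their only source, and the limit at 0 is 3 counts. Thinned shares are expected values at 3000 UMIs per cell. The free RNA profile came from barcodes of 1 to 100 UMIs, and its share from endothelial markers read in VSMCs. The 7 markers planned gave 69.6% and 56.1%, which includes UMIs that VSMCs made, and 5 markers chosen after seeing the data gave 4.77% and 4.36%, which were used. The 5 were *Tie1*, *Emcn*, *Pecam1*, *Cdh5* and *Cldn5*. *Pecam1*, *Cdh5* and *Cldn5* also served to call ECs, so that VSMCs are low in them by definition. This can hold the share down, and every free RNA estimate given depends on it. Doublets were kept, and an alternative left out the deepest 5% of cells. Barcodes over the mitochondrial limit (87 and 59) were left out.

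The 9 genes and the gene lists were chosen with earlier results of these data known. Of each list, up to 3 genes per direction with the largest called change and a mean of at least 10 CPM are named, and other names were chosen after their values were seen. Some genes that this rule names are not reported here. edgeR's fits without the block were tested on simulated counts that held no difference between libraries. Fits with the block were not tested in this way.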

Additional observations from a re-analysis of the deposited data

How the results depend on the processing

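The calls of *Apoe* and *Lrp1* in ECs and of *Abca1* in Myh11-low cells kept their direction in every alternative run, and *Abca1* lost its call only with the overlapping groups. The library number as a block (replicate block) pairs sums of the same culture. With it, 3907 genes and 6 of the 9 were called between Myh11-low and Myh11-high cells (1049 and 1 without it). In ECs 5 of the 9 were called (2 without it), at the backgrounds given above for ECs. For cycling 3237 genes were called in Myh11-low (954) and 1824 in Myh11-high cells (763). The *Gpnmb* split gave 659 genes and 5 of 7 (0 and 0), with *Cd36* left out of the counts as above. Chosen after seeing the data, the block together with classes by rate gave 4283 genes and 6 of the 9, the block without cells with macrophage markers 3897 genes and 6 of the 9 (775 and 5 of 7 tested in the split), and the block with matched depth 576 genes and 6 of 7 tested in the split, where *Lpl* reversed to 0.50. DESeq2 called 1621 genes and 4 of the 9 for *Myh11*, with *Cd36*, whose sign was fixed, among the 4. In ECs it called 4 of the 9 (1 higher and 3 lower), with 2486 of 13015 genes higher and 1945 lower. It called 4 genes for *Lum* (1 in the main fit). For cycling in Myh11-low cells it called 1523 genes, for the difference in cycling 2 (0), and in the split 22, *Cd36* among them. Without a filter on low counts 2 of the 9 were called for *Myh11*, with 385 of 21118 genes higher and 707 lower. In that setting 2 genes were called for *Lum* and 1 for the difference in cycling. In the split 27 genes were called, again with *Cd36* among them. The calls of *Cd36* in the split are not taken as support. *Myh11* at 10 or more and 0 UMIs gave 1885 genes and 2 of the 9, the overlapping groups 79 genes and 0 of the 9. Subtraction of free RNA from 7 markers gave 4 of the 9 in ECs (2 higher and 2 lower). It called 1795 of 12579 genes as higher and 1942 as lower there. For the difference in cycling it gave 21 genes. Subtraction from 5 markers gave 2 genes for *Lum*, and classes by rate gave 0 genes for *Lum*. The causes were not tested. Other totals of genes called in either direction stayed within 1.5 times under the other alternatives, but the counts of genes lower in cycling cells did not. They went from 106 to 40 without a filter, 64 with subtraction from 7 markers, 188 with cycling at 10 or more UMIs and 443 by DESeq2 in Myh11-low cells, and from 44 to 13, 104, 80 and 181 in Myh11-high cells, with 73 by rate and 74 without the deepest 5% of cells. Subtraction from 7 markers also took the genes higher in ECs from 2734 to 1795 and those higher in cycling Myh11-high cells from 719 to 460. Without replicate 1 or 2, 1 library is left and no test is possible, and the values are those given for single libraries.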
